A study of Mus musculus with 6 samples.

Results

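The enzymes that write and erase methyl and acetyl groups on histones and DNA were followed in sorted macrophages of atherosclerosis-prone mice. The set took every gene whose symbol is Kdm, Kmt, Setd, Hdac, Sirt or Kat followed by a digit, together with the DNA methyltransferases Dnmt1, Dnmt3a and Dnmt3b, the methylcytosine dioxygenases Tet1, Tet2 and Tet3, and the polycomb methyltransferases Ezh1 and Ezh2. The Y-linked gene Kdm5d was left out. This gave 67 genes of the 21936 listed. RNA was sequenced in 6 libraries, 3 labelled CKO and 3 labelled WT. Per the labels, the CKO mice were ALKBH5flox/flox, Lyz2-Cre, APOE-/- and the WT mice ALKBH5flox/flox, APOE-/-, so both groups carried loxP-flanked Alkbh5 and lacked Apoe, the apolipoprotein whose loss raises blood cholesterol in mice. All animals ate high-fat chow over 4 months, and their age was not given in the sources used here. Cre driven by the Lyz2 locus acts in myeloid cells, monocytes and neutrophils as well as macrophages, so it does not mark macrophages alone. Alkbh5 encodes an RNA demethylase that removes the methyl group of N6-methyladenosine, a mark on mRNA and not on histones or DNA. The study set out, per its labels, to compare macrophages with and without this deletion, with macrophage senescence named in its title.

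As background, DNA methyltransferases add methyl groups to cytosine and TET enzymes oxidize them, the step that starts their removal. Lysine methyltransferases (Kmt, Setd, Ezh) and demethylases (Kdm) set methyl groups on histone tails, where H3K4 methylation goes with active promoters and enhancers, H3K27 and H3K9 trimethylation with silent genes, and H3K36 methylation with transcribed gene bodies. Acetyltransferases (Kat) open chromatin, and histone deacetylases (Hdac) and the NAD-dependent sirtuins (Sirt) reverse this. In macrophages several of these enzymes, among them Kdm6b, Hdac3 and Tet2, are known regulators of the response to inflammatory stimuli.

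The libraries held 15422154 to 18418903 reads assigned to genes, recovered from the deposited FPKM, a level per gene length and per sequencing depth. Alkbh5 went against its label, with 9.15, 8.61 and 8.50 FPKM in libraries labelled CKO against 3.77, 3.95 and 3.88 FPKM in those labelled WT (log2 fold change 1.00, SE 0.0496, limma adjusted p = 4.78e-09). Apoe, labelled null in both groups, was at 89.6, 97.3 and 98.1 FPKM in libraries labelled CKO against 1665, 1632 and 1607 FPKM in those labelled WT. Reads were counted over whole genes, so neither value shows whether a transcript was intact, and all directions here refer to the libraries as labelled. Of 8 macrophage markers, all were above 1 FPKM in both groups' libraries, and they summed to 2807 to 2859.6 FPKM in the libraries labelled CKO and 2050.5 to 2073 FPKM in those labelled WT. Markers of other cells moved with the groups. The 10 neutrophil markers summed to 86.3 to 98.4 FPKM in the libraries labelled CKO and 618 to 904 FPKM in those labelled WT, while Ly6g was at 0 in 3 libraries labelled CKO and 2 labelled WT. The 7 T and NK cell markers summed to 0.547 to 0.811 FPKM in the libraries labelled CKO and 3.98 to 4.69 FPKM in those labelled WT, and 6 B cell markers to 1.63 to 2.31 FPKM in the libraries labelled CKO and 3.97 to 5.97 FPKM in those labelled WT. Dendritic cell markers, 6 in all, summed to 20.4 to 23.9 FPKM in the libraries labelled CKO and 1.67 to 2.07 FPKM in those labelled WT. In those labelled CKO it was nearly all Ccr7 (21.1 ± 1.81 FPKM in the libraries labelled CKO and 0.742 ± 0.0497 FPKM in those labelled WT, SD, n = 3 each). Against that sum, Clec9a averaged 0.109 FPKM in libraries labelled CKO and 0.615 in those labelled WT, and Siglech 0.0119 FPKM in libraries labelled CKO and 0.372 in those labelled WT. The 6 markers of mast cells, basophils and eosinophils summed to 1.93 to 2.57 FPKM in the libraries labelled CKO and 10.3 to 11.9 FPKM in those labelled WT. Endothelial markers, 5 in all, summed to 7.77 to 8.99 FPKM in the libraries labelled CKO and 26.4 to 27.1 FPKM in those labelled WT. Of these, Vwf averaged 2.78 FPKM in libraries labelled CKO and 19.8 in those labelled WT, while Pecam1 averaged 1.47 in libraries labelled CKO and 0.880 in those labelled WT. The 7 fibroblast and smooth muscle markers summed to 3.56 to 3.69 FPKM in the libraries labelled CKO and 1.41 to 2.27 FPKM in those labelled WT. These sums move with the groups for every result that follows. Their part in the results was not tested, and in bulk RNA a change in the number of cells of a type and a change in RNA per cell cannot be told apart. Nothing in the labels tells if each library had its own animal. P-values therefore rest on a spread that could be technical.

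Among the enzymes, the largest change on the log2(FPKM + 1) scale was a fall of the de novo DNA methyltransferase Dnmt3a. The next largest falls were those of the H4K20 methyltransferase Kmt5c and the dioxygenase Tet3. The largest rises were those of the histone demethylases Kdm6b, Kdm4b and Kdm5b and the deacetylase Sirt6. This order depends on the scale. By ratio of mean FPKM, Kdm2b was 2.45-fold lower, against 2.31 for Tet3 and 2.25 for Kmt5c. Hdac7 was 2.27-fold higher by that ratio, against 2.25 for Sirt6. Of the 67 genes, 61 had at least 1 FPKM in at least 3 libraries and were tested. Each of the 61 had at least 1 FPKM in at least 1 library of each group. Hdac9 was at 1.06, 0.965 and 0.910 FPKM in libraries labelled WT, so it passed only with those labelled CKO. Of the 61, 19 rose and 29 fell in the libraries labelled CKO (limma on log2(FPKM + 1), Benjamini-Hochberg adjusted p under 0.05), which is 31.1% and 47.5%, and 13 were not called. Over all 9953 genes tested the calls came to 30.5% higher and 50.5% lower, 81.1% in all, so the share of enzymes called, 78.7%, was close to the background. For 49 of the 61 the groups had separate values, against 82.5% of all genes. The median log2 fold change was -0.09 for the enzymes and -0.14 for all genes, and the median size without sign was 0.29 and 0.40. Changes of at least 1 on the log2 scale were found upwards for 4 enzymes (6.56% against 8.35% of all genes) and downwards for 3 (4.92% against 10%).

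**Figure D1:**
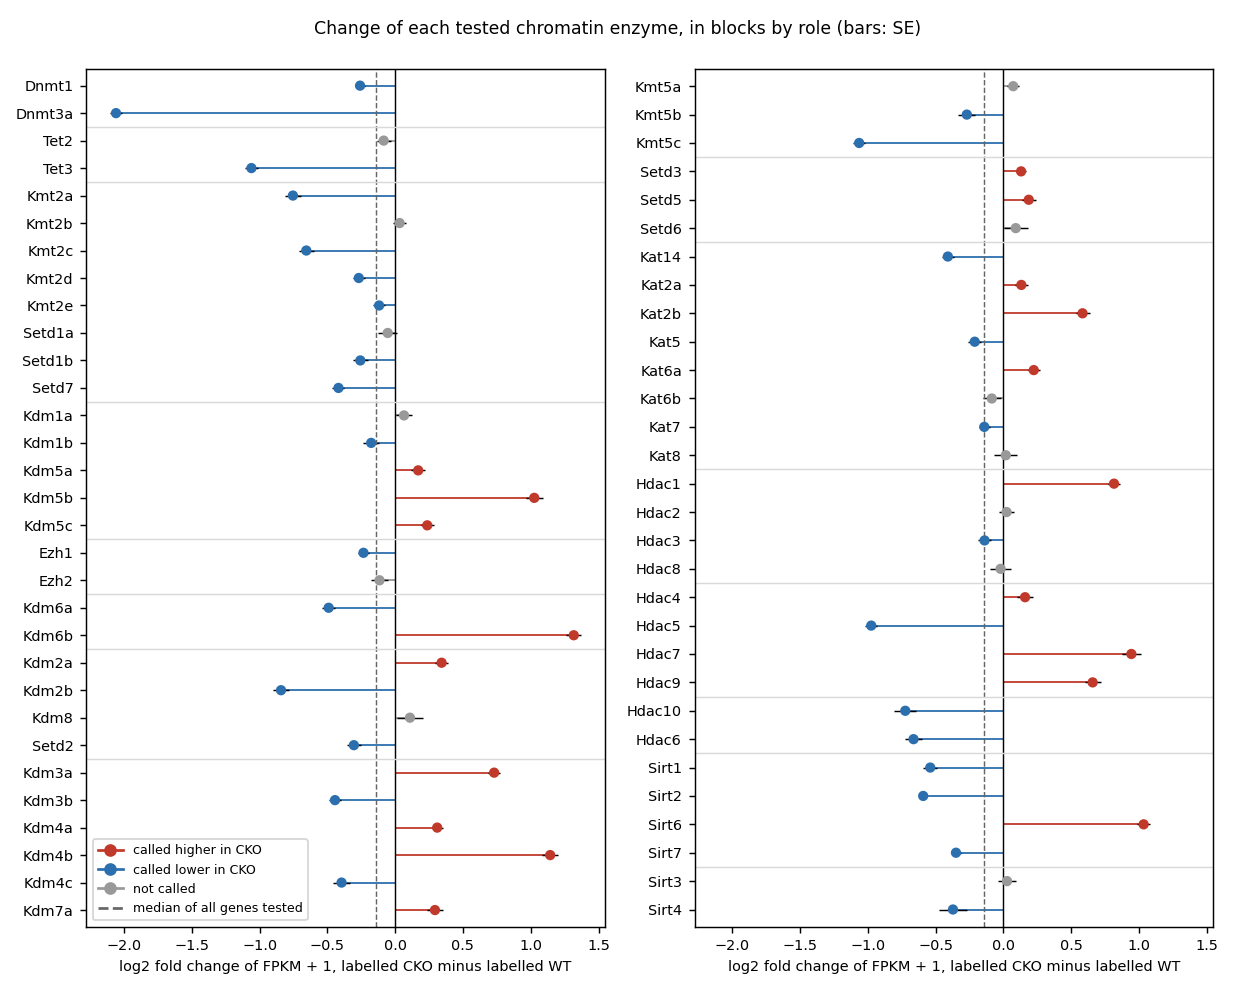
Log2 fold change of FPKM + 1 (horizontal axis, libraries labelled CKO minus labelled WT) of the 61 tested enzymes in blocks by role, with SE bars; red is called higher in CKO, blue called lower, grey not called, and the dashed line is the median of all genes tested, -0.14. Dnmt3a at -2.06 lies farthest to the left and Kdm6b at 1.32 farthest to the right.

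The plot of single changes by role shows calls in both directions within 8 of the 16 role groups. The cumulative distribution shows the same 61 changes against all genes. Of the 61, 11 lay within 0.1 of 0 (18%, against 14.5% of all genes), and none of the 11 was called. Scaling mattered for small changes. With median-of-ratios scaling, which moved the median of all genes by 0.16, 25 enzymes were higher and 18 lower, and with quantile normalization, which moved it by 0.10, 23 were higher and 23 lower. Over all 9953 genes, median-of-ratios scaling called 4058 higher and 3874 lower, and quantile normalization 3569 higher and 4334 lower. All 19 enzymes called higher remained higher under both scalings, and 18 of the 29 called lower remained lower. The other 11 were Dnmt1, Ezh1, Hdac3, Kat5, Kat7, Kdm1b, Kmt2d, Kmt2e, Kmt5b, Setd1b and Sirt4, which lost their call under at least 1 of the scalings, and Hdac3, Kat7 and Kmt2e turned above 0 under median-of-ratios scaling. Summed over all 67 genes the FPKM were 544, 541 and 524 in the libraries labelled CKO, against 579, 569 and 579 in those labelled WT.

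**Figure D2:**
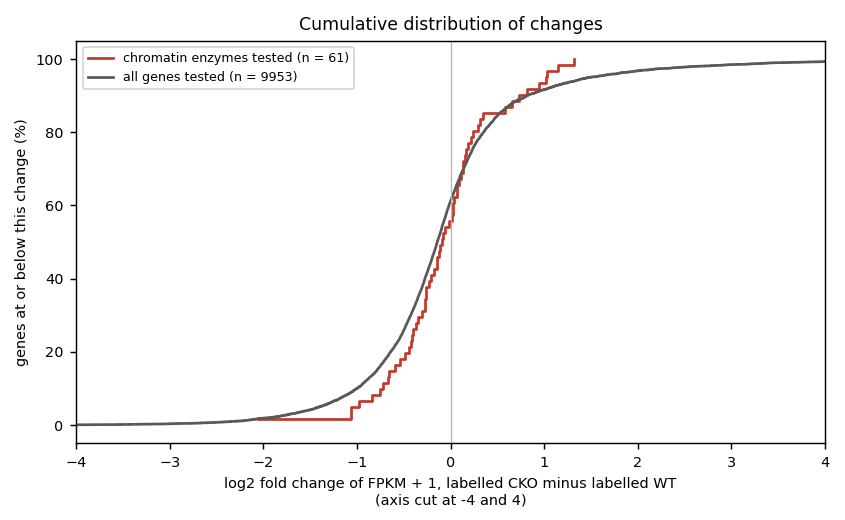
Share of genes (vertical axis, %) at or below each log2 fold change of FPKM + 1 (horizontal axis, labelled CKO minus labelled WT, shown between -4 and 4), for the 61 tested enzymes (red) and all 9953 genes tested (grey). The enzymes have no change above 1.32 or below -2.06, while the curve of all genes runs past both.

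The levels in single libraries are shown in the plot of levels, in which the 3 libraries of a group have nearly the same colour in most rows. The coefficient of variation between libraries of a group had a median of 4.4% over the tested enzymes in the libraries labelled CKO and 3.61% in those labelled WT. It was highest for Hdac10 at 16.7% in the libraries labelled CKO and for Kdm8 at 23.0% in those labelled WT. The reads of a tested enzyme, summed over a group, were 249 to 10246 in the libraries labelled CKO and 236 to 24479 in those labelled WT.

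**Figure D3:**
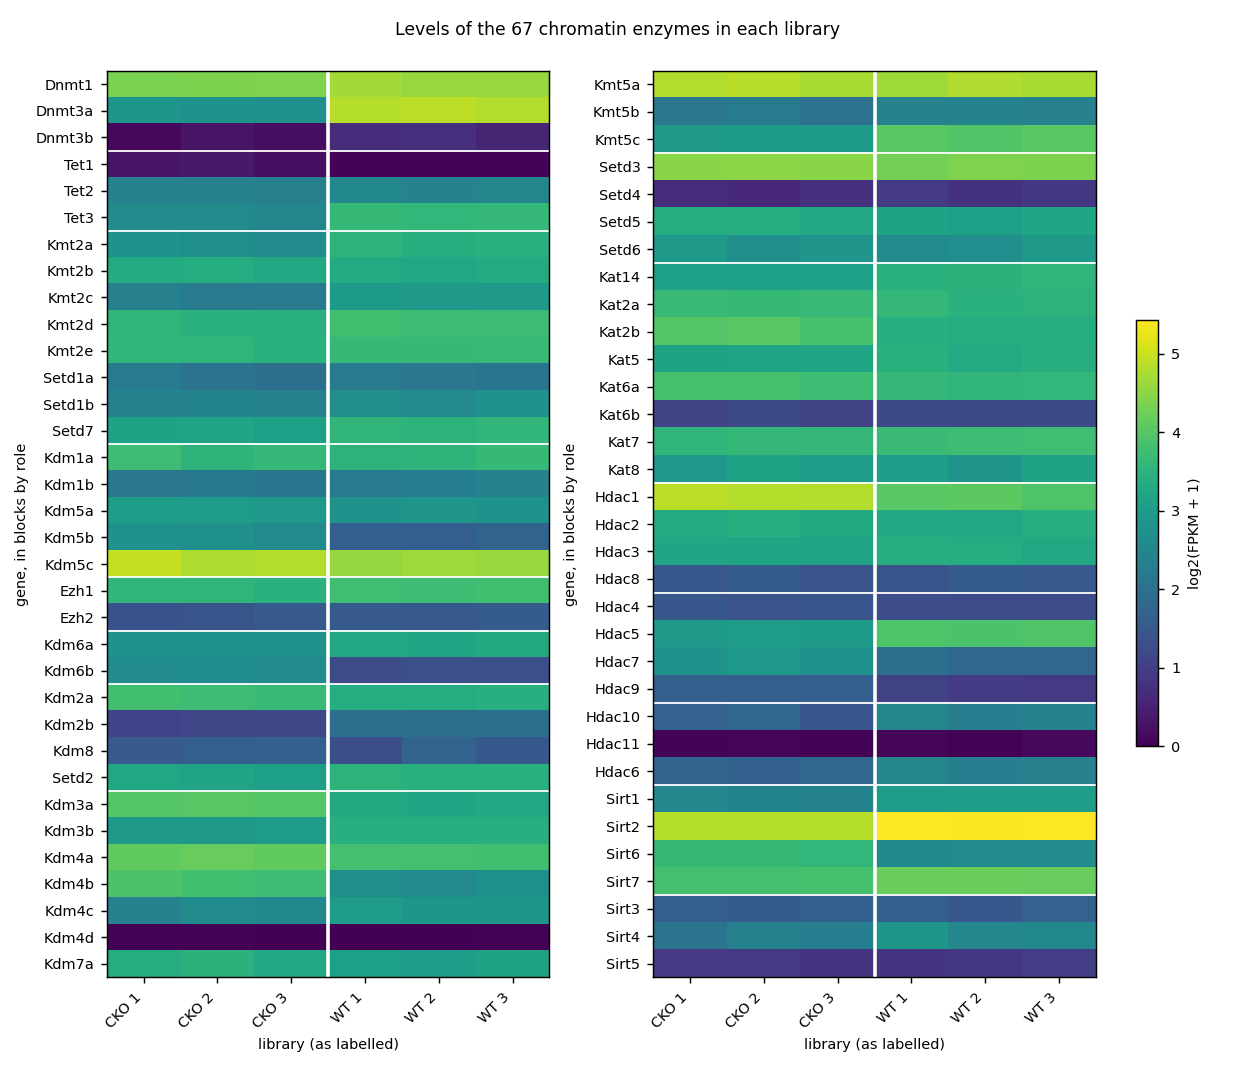
Level of each of the 67 enzymes (rows, in blocks by role) in each of the 6 libraries (columns, CKO to the left of the white line and WT to the right), coloured by log2(FPKM + 1). Dnmt3a, Kmt5c, Tet3 and Hdac5 are darker in the 3 CKO columns, Kdm6b, Kdm5b, Kdm4b and Sirt6 darker in the 3 WT columns, and Kdm4d and Hdac11 are near 0 throughout.

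Among the enzymes of DNA methylation, Dnmt3a, which with Dnmt3b sets new methylation on DNA, was at 6.22, 5.83 and 5.63 FPKM in libraries labelled CKO against 27.5, 28.6 and 27.1 FPKM in those labelled WT (mm10 chr12:3806007-3914443, plus strand). The groups were far apart, with every library labelled CKO under 7 FPKM and every one labelled WT over 27 FPKM. Dnmt3a was 4.70-fold lower in the libraries labelled CKO (log2 fold change -2.06, SE 0.0456, limma adjusted p = 4.48e-12), and by level per length it ranked 37th of the 67 genes there and 2nd in those labelled WT. Dnmt1, which copies methylation after replication, was at 19.3, 19.6 and 19.8 FPKM in libraries labelled CKO against 24.7, 23.2 and 23.0 FPKM in those labelled WT (log2 fold change -0.26, SE 0.0387, limma adjusted p = 7.75e-05). It was lower without overlap, a smaller difference that was not called under median-of-ratios scaling (-0.08). Dnmt3b was under 1 FPKM throughout, at 0.0800, 0.216 and 0.154 FPKM in libraries labelled CKO against 0.606, 0.666 and 0.470 FPKM in those labelled WT. These came from 38 reads over the libraries labelled CKO and 158 over those labelled WT. The 3 methyltransferases summed to 25.6, 25.7 and 25.6 FPKM in the libraries labelled CKO, against 52.8, 52.5 and 50.6 FPKM in those labelled WT, and most of that gap was Dnmt3a.

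Dnmt3a has 3 promoter windows in RefSeq on build GRCm38.p6 (the assembly also called mm10), each 250 bases before to 50 after an annotated start. They are printed because Dnmt3a changed most, with any motif match in capitals. The first and second lie in the CpG-rich 5′ end of the gene, with 82.3% and 81.0% G and C and 46 and 47 CpG pairs in 300 bases, and the third belongs to an inner start. Gene totals do not say which start was used.
Dnmt3a window 1, chr12:3806730-3807029, plus strand: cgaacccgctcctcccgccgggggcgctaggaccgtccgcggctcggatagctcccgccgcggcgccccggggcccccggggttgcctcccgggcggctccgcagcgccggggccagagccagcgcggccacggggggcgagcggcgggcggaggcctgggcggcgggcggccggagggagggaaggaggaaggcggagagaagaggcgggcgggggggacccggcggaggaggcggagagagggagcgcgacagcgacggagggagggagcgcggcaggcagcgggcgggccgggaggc
Dnmt3a window 2, chr12:3806910-3807209, plus strand: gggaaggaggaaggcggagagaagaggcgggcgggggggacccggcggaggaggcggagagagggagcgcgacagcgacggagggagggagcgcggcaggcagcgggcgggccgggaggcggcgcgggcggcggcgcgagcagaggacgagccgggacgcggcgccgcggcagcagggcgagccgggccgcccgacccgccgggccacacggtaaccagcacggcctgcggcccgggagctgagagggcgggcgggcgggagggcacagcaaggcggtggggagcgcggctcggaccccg
Dnmt3a window 3, chr12:3891494-3891793, plus strand: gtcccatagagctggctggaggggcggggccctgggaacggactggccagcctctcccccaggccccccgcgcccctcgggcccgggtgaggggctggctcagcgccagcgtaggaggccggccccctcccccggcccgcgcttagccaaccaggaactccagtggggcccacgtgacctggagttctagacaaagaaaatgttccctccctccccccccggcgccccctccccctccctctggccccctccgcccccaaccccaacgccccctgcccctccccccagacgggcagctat

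The TET enzymes oxidize methylcytosine. Tet3 was at 5.12, 4.93 and 4.64 FPKM in libraries labelled CKO against 11.5, 11.1 and 11.3 FPKM in those labelled WT (mm10 chr6:83362373-83459084, minus strand). Every library labelled CKO was lower than every one labelled WT, a 2.31-fold difference (log2 fold change -1.06, SE 0.0483, limma adjusted p = 2.3e-09). Tet2, the TET enzyme often mutated in clonal blood cell expansion, was at 4.32, 4.26 and 4.14 FPKM in libraries labelled CKO against 4.77, 4.32 and 4.59 FPKM in those labelled WT. Its groups overlapped and it was not called (log2 fold change -0.08, limma adjusted p = 0.161). Tet1 was too low to be tested, at 0.261, 0.285 and 0.164 FPKM in libraries labelled CKO against 0.0386, 0.0216 and 0.0349 FPKM in those labelled WT. These values rest on 182 reads over the libraries labelled CKO and 26 over those labelled WT. The ratio of Tet3 to Tet2 within a library was 1.15 ± 0.0310 in the libraries labelled CKO and 2.48 ± 0.0796 in those labelled WT (mean ± SD, n = 3 each, as for all ratios here).

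Of 8 H3K4 methyltransferases tested, 6 were lower in the libraries labelled CKO and none was higher, where 50.5% of all genes were lower and 30.5% higher. Under median-of-ratios scaling 3 were lower and 1, Kmt2b, was higher, and under quantile normalization 5 were lower and Kmt2b was higher. Over all 9953 genes, 3874 were lower and 4058 higher under the first scaling, and 4334 lower and 3569 higher under the second. Kmt2a (MLL1), the founding member of the family, was at 5.97, 5.55 and 5.14 FPKM in libraries labelled CKO against 10.5, 9.64 and 10.01 FPKM in those labelled WT. It was 1.81-fold lower in libraries labelled CKO (log2 fold change -0.75, SE 0.0571, limma adjusted p = 2.18e-07; mm10 chr9:44803355-44881296, minus strand). Kmt2c (MLL3), an enhancer H3K4 monomethyltransferase, was at 4.19, 3.80 and 3.70 FPKM in libraries labelled CKO against 6.75, 6.67 and 6.71 FPKM in those labelled WT. It was 1.72-fold lower in libraries labelled CKO (log2 fold change -0.66, SE 0.0539, limma adjusted p = 4.56e-07; mm10 chr5:25271798-25498783, minus strand). Both were separated in every library. Kmt2d, the paralog of Kmt2c, changed by -0.27, and Setd7, a monomethyltransferase of H3K4 and of other proteins, by -0.42, both called, Kmt2d no longer under median-of-ratios scaling. Setd1b, the catalytic subunit of a COMPASS complex, changed by -0.26, and Kmt2e, a family member with little catalytic activity of its own, by -0.12, called under the deposited scaling. Kmt2b and Setd1a overlapped between groups and were not called, at 0.03 and -0.06. Of Setd1a, 51.8% of the exonic bases are shared with the annotated gene Gm49388 on the same strand, so its reads could be split. The summed level of the 8 was 56.8, 55.0 and 52.4 FPKM in the libraries labelled CKO, against 70.5, 67.5 and 69.8 FPKM in those labelled WT.

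Of 5 H3K4 demethylases, 3 were higher and 1 lower, where 30.5% of all genes were higher and 50.5% lower. Under both other scalings 4 were higher and 0 lower, beside the counts of all genes given above for these scalings. The difference between H3K4 methyltransferases and demethylases was not tested. Kdm5b (JARID1B), which removes H3K4 trimethylation, was at 5.70, 5.58 and 5.05 FPKM in libraries labelled CKO against 2.07, 2.07 and 2.36 FPKM in those labelled WT (mm10 chr1:134560171-134635285, plus strand). The lowest library labelled CKO was above the highest labelled WT by more than the whole spread of either group, a 2.52-fold difference (log2 fold change 1.03, SE 0.0632, limma adjusted p = 3.5e-08). Its relative Kdm5c was at 29.9, 26.4 and 26.96 FPKM in libraries labelled CKO against 23.0, 24.0 and 23.1 FPKM in those labelled WT. This was the highest mean level of the set in the libraries labelled CKO. Kdm5c and Kdm5a changed by 0.24 and 0.17, both called. Of the flavin-dependent demethylases, Kdm1a (LSD1) was not called (0.07, limma adjusted p = 0.316) and Kdm1b changed by -0.18, a call lost under both scalings. The 5 summed to 58.5, 53.0 and 53.0 FPKM in the libraries labelled CKO, against 45.1, 46.9 and 47.0 FPKM in those labelled WT.

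Of the enzymes of H3K27 methylation, Kdm6b (JMJD3), an H3K27 demethylase induced in macrophages by inflammatory stimuli, had the largest rise of the tested members. It was at 5.14, 5.29 and 4.94 FPKM in libraries labelled CKO against 1.37, 1.51 and 1.49 FPKM in those labelled WT (mm10 chr11:69398508-69413675, minus strand), and every library labelled CKO exceeded 3 times the highest labelled WT. The fold was 3.52 (log2 fold change 1.32, SE 0.0558, limma adjusted p = 1.2e-09), and 4.11% of its exonic bases overlap the antisense gene Kdm6bos. Kdm6a (UTX), the X-linked enzyme with the same substrate, was at 5.82, 5.93 and 5.75 FPKM in libraries labelled CKO against 8.71, 8.24 and 8.87 FPKM in those labelled WT. It was 1.48-fold lower in libraries labelled CKO (log2 fold change -0.49, SE 0.0473, limma adjusted p = 1.88e-06; mm10 chrX:18162575-18279936, plus strand). The paralogs differed in direction, and Kdm6b over Kdm6a within a library was 0.878 ± 0.0164 in the libraries labelled CKO and 0.170 ± 0.0126 in those labelled WT. Of the enzymes that write the mark, Ezh1 changed by -0.23, a call lost under median-of-ratios scaling, and Ezh2 was low. It was at 1.59, 1.64 and 1.85 FPKM in libraries labelled CKO against 1.91, 1.85 and 1.99 FPKM in those labelled WT, just without overlap, and was not called (log2 fold change -0.12, limma adjusted p = 0.106).

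Of 6 tested H3K9 and H3K36 demethylases, 4 were higher and 2 lower, where 30.5% of all genes were higher and 50.5% lower. The 2 counts were the same under both other scalings. Of all 9953 genes, 4058 were higher and 3874 lower with median-of-ratios scaling, and 3569 and 4334 with quantile normalization. Kdm4b (JMJD2B), which removes H3K9 trimethylation, was at 14.0, 12.8 and 12.5 FPKM in libraries labelled CKO against 5.49, 5.0 and 5.64 FPKM in those labelled WT (mm10 chr17:56326062-56402870, plus strand). The groups were more than 6 FPKM apart, a 2.43-fold difference (log2 fold change 1.14, SE 0.0574, limma adjusted p = 5.48e-09). Kdm3a (JMJD1A), which acts on lower H3K9 methylation states, was at 15.1, 15.1 and 14.7 FPKM in libraries labelled CKO against 8.92, 8.31 and 8.69 FPKM in those labelled WT. It was 1.73-fold higher in libraries labelled CKO (log2 fold change 0.73, SE 0.0429, limma adjusted p = 2.29e-08; mm10 chr6:71588972-71632990, minus strand). In the same direction, with a smaller change, Kdm4a was at 16.3, 16.98 and 16.2 FPKM in libraries labelled CKO against 13.2, 13.2 and 12.8 FPKM in those labelled WT (log2 fold change 0.31, SE 0.0397, limma adjusted p = 2.2e-05; mm10 chr4:118136957-118180043, minus strand). The H3K9 and H3K27 demethylase Kdm7a was at 9.32, 10.3 and 8.70 FPKM in libraries labelled CKO against 7.49, 7.28 and 7.76 FPKM in those labelled WT (log2 fold change 0.29, SE 0.0596, limma adjusted p = 0.000814; mm10 chr6:39136623-39206789, minus strand). All 4 were higher in every library labelled CKO than in any labelled WT. Their relatives Kdm4c and Kdm3b were lower, with changes of -0.40 and -0.44 on the log2 scale, although 24.6% of the exonic bases of Kdm3b overlap an antisense gene, Gm26538. Kdm4d, known for expression in testis, had 2 reads over the libraries labelled CKO and 1 over those labelled WT. The 7 summed to 65.7, 67 and 63.9 FPKM in the libraries labelled CKO, against 51.8, 49.6 and 50.9 FPKM in those labelled WT.

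Among the genes that act on H3K36 alone or with H3K4, Kdm2a, an H3K36 demethylase that binds unmethylated CpG islands, was at 12.8, 12.3 and 11.6 FPKM in libraries labelled CKO against 9.34, 9.33 and 9.55 FPKM in those labelled WT. It was 1.3-fold higher in libraries labelled CKO (log2 fold change 0.34, SE 0.0460, limma adjusted p = 3.26e-05; mm10 chr19:4314419-4398285, minus strand). Its paralog Kdm2b, which brings a polycomb complex to CpG islands, was lower, at 1.13, 1.22 and 1.25 FPKM in libraries labelled CKO against 2.96, 2.90 and 2.98 FPKM in those labelled WT. It was 2.45-fold lower in libraries labelled CKO (log2 fold change -0.84, SE 0.0568, limma adjusted p = 7.77e-08; mm10 chr5:122870665-122989823, minus strand). The groups did not overlap for either gene. Setd2, which trimethylates H3K36 in transcribed genes, changed by -0.30, and the JmjC protein Kdm8 overlapped between groups (0.11, not called).

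The H4K20 methyltransferase Kmt5c (SUV420H2), which makes H4K20 trimethylation in heterochromatin, was at 6.70, 6.74 and 6.78 FPKM in libraries labelled CKO against 15.4, 14.6 and 15.6 FPKM in those labelled WT (mm10 chr7:4740115-4747514, plus strand). The 3 libraries labelled CKO lay within 0.1 FPKM of each other and below all labelled WT. The difference was 2.25-fold (log2 fold change -1.06, SE 0.0435, limma adjusted p = 8.76e-10). Kmt5c ranked 34th of 67 by level in the libraries labelled CKO and 9th in those labelled WT. Kmt5b changed by -0.27, a call lost under both scalings. Kmt5a (SET8), the monomethyltransferase that the other two build on, was among the most abundant members. It was at 27.1, 27.7 and 25.4 FPKM in libraries labelled CKO against 24.3, 26.5 and 25.3 FPKM in those labelled WT, overlapping between groups and not called (0.07). The promoter windows of Kmt5c and Tet3, the next largest falls after Dnmt3a on the log2 scale used, follow, with the motif match of Kmt5c in capitals. The Tet3 window belongs to an inner start, as the listed 5′ end of the gene is at 83459084.
Kmt5c window 1, chr7:4739877-4740176, plus strand: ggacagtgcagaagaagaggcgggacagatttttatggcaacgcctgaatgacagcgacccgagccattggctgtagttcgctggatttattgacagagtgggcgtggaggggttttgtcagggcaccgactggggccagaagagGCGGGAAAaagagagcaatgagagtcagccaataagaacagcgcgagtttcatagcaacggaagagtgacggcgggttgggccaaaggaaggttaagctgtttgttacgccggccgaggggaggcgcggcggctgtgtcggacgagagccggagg
Tet3 window 1, chr6:83441629-83441928, minus strand: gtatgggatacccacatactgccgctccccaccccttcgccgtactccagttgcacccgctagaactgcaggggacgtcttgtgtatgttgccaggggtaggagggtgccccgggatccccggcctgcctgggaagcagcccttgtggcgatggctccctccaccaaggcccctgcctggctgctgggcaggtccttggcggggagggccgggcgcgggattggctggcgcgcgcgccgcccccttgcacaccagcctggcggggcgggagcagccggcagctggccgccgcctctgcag

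Setd3, Setd5 and Setd6 belong to the remaining SET domain proteins. Setd3, the actin histidine methyltransferase, and Setd5 were higher by 0.13 and 0.19 on the log2 scale, both called, and Setd6 overlapped between groups and was not called (0.09). Setd4 stayed under 1 FPKM in all libraries, at 0.608, 0.555 and 0.710 FPKM in libraries labelled CKO against 0.888, 0.725 and 0.848 FPKM in those labelled WT.

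Of 8 acetyltransferases tested, 3 were higher and 3 lower, where 30.5% of all genes were higher and 50.5% lower. Their summed level was 74.4 ± 1.73 FPKM in the libraries labelled CKO and 71.6 ± 2.22 FPKM in those labelled WT (SD, n = 3 each). The lowest sum labelled CKO, 72.97 FPKM, was barely above the highest labelled WT, 72.94 FPKM. Kat2b (PCAF), an H3K9 acetyltransferase of the SAGA and ATAC complexes, was at 14.9, 15.5 and 13.5 FPKM in libraries labelled CKO against 9.70, 9.29 and 9.29 FPKM in those labelled WT, all libraries labelled CKO above all labelled WT. It was 1.55-fold higher in libraries labelled CKO (log2 fold change 0.58, SE 0.0518, limma adjusted p = 9.19e-07; mm10 chr17:53566861-53672720, plus strand). Its paralog Kat2a (GCN5) and the MYST family enzyme Kat6a were higher by 0.13 and 0.22, both called, Kat2a no longer when single libraries were left out. Kat14, a subunit of the ATAC complex, changed by -0.41, Kat5 (TIP60) by -0.21 and Kat7 (HBO1) by -0.14 on the log2 scale, all called lower, of which Kat5 lost its call and Kat7 turned to 0.03 under median-of-ratios scaling. Of the exonic bases of Kat14, 14.7% are shared with Pet117 on the same strand. For Kat5, 12.1% overlap Rnaseh2c on the opposite strand. Kat8 (MOF), the H4K16 acetyltransferase, had the smallest change of the tested members, 0.02 (SE 0.0862, limma adjusted p = 0.861). It was at 6.44, 7.78 and 7.11 FPKM in libraries labelled CKO against 7.31, 5.99 and 7.81 FPKM in those labelled WT, with overlap. Kat6b was low and not called (-0.09).

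Hdac1, a class I deacetylase of the Sin3, NuRD and CoREST corepressor complexes, was at 28.2, 27.2 and 27.1 FPKM in libraries labelled CKO against 15.5, 15.7 and 14.4 FPKM in those labelled WT (mm10 chr4:129516104-129542713, minus strand). It was higher in every library labelled CKO, 1.81-fold (log2 fold change 0.82, SE 0.0418, limma adjusted p = 6.61e-09), and ranked 2nd of the 67 by level there and 8th in those labelled WT. Its close paralog Hdac2 was at 9.11, 9.61 and 8.85 FPKM in libraries labelled CKO against 8.66, 8.62 and 9.83 FPKM in those labelled WT, with overlap. It was not called (log2 fold change 0.02, SE 0.0568, limma adjusted p = 0.718). Hdac8 was at 1.81, 2.04 and 1.61 FPKM in libraries labelled CKO against 1.67, 2.05 and 1.86 FPKM in those labelled WT, also with overlap (log2 fold change -0.02, SE 0.0751, limma adjusted p = 0.799). Hdac3, the enzyme of the NCoR and SMRT complexes, changed by -0.14 with a value of 0.03 under median-of-ratios scaling. The class I sum was 47.4, 47.0 and 45.5 FPKM in the libraries labelled CKO, against 35.2, 35.6 and 34.8 FPKM in those labelled WT, a gap no larger than that of Hdac1 alone.

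Class IIa deacetylases, which bind MEF2 factors and shuttle between nucleus and cytoplasm, went in both directions. Of the 4, 3 were higher and 1 lower under all 3 scalings, where 30.5% of all genes were higher and 50.5% lower under the deposited scaling. For all 9953 genes the counts higher and lower were 4058 and 3874 under median-of-ratios scaling and 3569 and 4334 under quantile normalization. Hdac7 was at 5.79, 6.48 and 5.74 FPKM in libraries labelled CKO against 2.94, 2.5 and 2.49 FPKM in those labelled WT. It was 2.27-fold higher in libraries labelled CKO (log2 fold change 0.94, SE 0.0673, limma adjusted p = 1.29e-07; mm10 chr15:97792664-97844502, minus strand). Hdac9 was at 2.14, 2.15 and 2.07 FPKM in libraries labelled CKO against 1.06, 0.965 and 0.910 FPKM in those labelled WT. It was 2.17-fold higher in libraries labelled CKO (log2 fold change 0.66, SE 0.0601, limma adjusted p = 1.17e-06; mm10 chr12:34047580-34917095, minus strand). Both were separated by label in every library, Hdac9 at a low level. Hdac9, among the 3 counted as higher, passed the filter only with the libraries labelled CKO. Hdac5 was lower, at 6.63, 6.92 and 6.74 FPKM in libraries labelled CKO against 14.2, 14.0 and 14.6 FPKM in those labelled WT. It was 2.11-fold lower in libraries labelled CKO (log2 fold change -0.98, SE 0.0427, limma adjusted p = 1.6e-09; mm10 chr11:102194432-102230166, minus strand). Hdac4 was low and changed by 0.16, a call lost when single libraries were left out. Of its exonic bases, 22.4% overlap Gm26720 on the opposite strand. The ratio of Hdac7 to Hdac5 within a library was 0.887 ± 0.0444 in the libraries labelled CKO and 0.185 ± 0.0189 in those labelled WT.

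Both tested class IIb enzymes were lower, as were 50.5% of all genes. Hdac6, the cytoplasmic deacetylase of tubulin, was at 2.31, 2.22 and 2.51 FPKM in libraries labelled CKO against 4.59, 4.12 and 4.19 FPKM in those labelled WT. It was 1.83-fold lower in libraries labelled CKO (log2 fold change -0.66, SE 0.0607, limma adjusted p = 1.18e-06; mm10 chrX:7930120-7947889, minus strand). Hdac10, a polyamine deacetylase, was at 2.28, 2.51 and 1.80 FPKM in libraries labelled CKO against 4.51, 4.01 and 4.26 FPKM in those labelled WT. It was 1.94-fold lower in libraries labelled CKO (log2 fold change -0.72, SE 0.0826, limma adjusted p = 8.04e-06; mm10 chr15:89123307-89128700, minus strand). The groups did not overlap for either. The class IV enzyme Hdac11 was near 0, with 8 reads over the libraries labelled CKO and 13 over those labelled WT.

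Of the sirtuins, Sirt6, a nuclear deacetylase of H3K9 that is linked to genome stability and ageing in mice, was at 11.4, 11.4 and 11.2 FPKM in libraries labelled CKO against 4.82, 5.08 and 5.17 FPKM in those labelled WT (mm10 chr10:81621785-81627797, minus strand). The groups were widely apart with little spread, and the fold was 2.25 (log2 fold change 1.03, SE 0.0458, limma adjusted p = 1.8e-09). The other 3 nuclear or cytosolic sirtuins were lower, as were 50.5% of all genes. Sirt2, mainly cytosolic, was at 27.5, 27.3 and 27.5 FPKM in libraries labelled CKO against 42.2, 41.6 and 41.8 FPKM in those labelled WT. It was 1.53-fold lower in libraries labelled CKO (log2 fold change -0.59, SE 0.0311, limma adjusted p = 8.18e-09; mm10 chr7:28766735-28788661, plus strand). It ranked 3rd of the 67 genes by level in the libraries labelled CKO and 1st in those labelled WT. Sirt1, which deacetylates NF-kB and p53 among others, was at 4.73, 4.46 and 4.35 FPKM in libraries labelled CKO against 6.86, 7.10 and 7.09 FPKM in those labelled WT. It was 1.55-fold lower in libraries labelled CKO (log2 fold change -0.54, SE 0.0497, limma adjusted p = 1.25e-06; mm10 chr10:63319005-63381704, minus strand). Sirt7, of the nucleolus, changed by -0.35. The libraries did not overlap for any of the 4. Sirt6 over Sirt1 within a library was 2.51 ± 0.0875 in the libraries labelled CKO and 0.716 ± 0.0139 in those labelled WT. Of the mitochondrial sirtuins, Sirt3 was at 2.09, 2.02 and 2.24 FPKM in libraries labelled CKO against 2.06, 1.84 and 2.29 FPKM in those labelled WT, overlapping and not called (log2 fold change 0.03, SE 0.0685, limma adjusted p = 0.731). Sirt4 changed by -0.37, a call lost under both scalings, and Sirt5 stayed under 1 FPKM in all libraries.

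The promoter windows of Sirt6 are printed because it is the only one of the 3 largest rises on the log2 scale used with an entry in the RefSeq table. Kdm6b and Kdm4b have none. The 2 windows overlap, the second holds a match of the NF-kB-like motif GGNNNTTCC in capitals, and they contain 57.3% and 61.3% G and C with 20 and 21 CpG pairs.
Sirt6 window 1, chr10:81627517-81627816, minus strand: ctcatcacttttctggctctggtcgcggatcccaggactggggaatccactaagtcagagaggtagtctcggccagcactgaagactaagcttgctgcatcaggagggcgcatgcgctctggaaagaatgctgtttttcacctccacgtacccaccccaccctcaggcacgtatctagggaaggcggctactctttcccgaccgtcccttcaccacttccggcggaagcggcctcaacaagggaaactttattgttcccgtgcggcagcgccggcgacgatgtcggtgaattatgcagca
Sirt6 window 2, chr10:81627273-81627572, minus strand: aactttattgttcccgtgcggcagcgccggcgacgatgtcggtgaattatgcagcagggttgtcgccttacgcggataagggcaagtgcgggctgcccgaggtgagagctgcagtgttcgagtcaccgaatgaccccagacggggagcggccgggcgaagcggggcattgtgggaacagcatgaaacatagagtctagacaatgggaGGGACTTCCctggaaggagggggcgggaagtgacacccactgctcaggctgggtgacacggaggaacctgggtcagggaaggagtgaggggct

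**Figure D4:**
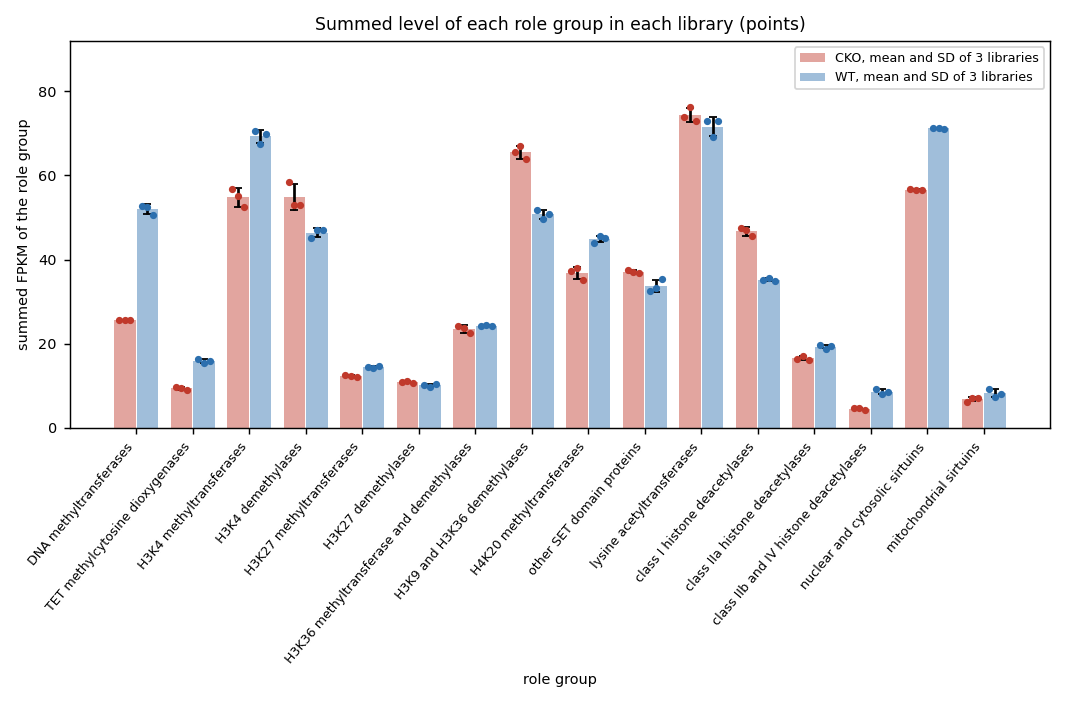
Summed FPKM (vertical axis) of the members of each role group (horizontal axis) in each library (points), with bars for the mean and error bars for the SD of 3 libraries, CKO in red on the left of each pair and WT in blue on the right. The sums of DNA methyltransferases, H3K4 methyltransferases and nuclear and cytosolic sirtuins are lower in CKO and those of H3K4 demethylases, H3K9 and H3K36 demethylases and class I deacetylases higher, without overlap. Sums without overlap are not particular to these groups, as only those of the H3K36 methyltransferase and demethylases overlap. The class IIa sum is lower in CKO, at 16.2 to 17.2 FPKM against 18.8 to 19.7 FPKM in WT.

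The plot of summed levels by role places these groups side by side. Within a library a ratio between related genes does not depend on how the library was scaled, and 14 pairs of related members are shown in the plot of ratios. The pairs were chosen with their values known, so they are a description. In 13 of the 14 the ratios of the groups did not overlap, the exception being Ezh1 over Ezh2, at 6.30 ± 0.729 in the libraries labelled CKO and 6.60 ± 0.130 in those labelled WT. Kdm4b over Kdm4c was 2.77 ± 0.428 in the libraries labelled CKO and 0.819 ± 0.0587 in those labelled WT, so the more abundant of the pair differed between the labels. The same switch was seen for Kdm3a over Kdm3b (2.22 ± 0.107 in the libraries labelled CKO and 0.904 ± 0.0235 in those labelled WT) and for Dnmt3a over Dnmt1 (0.301 ± 0.0186 in the libraries labelled CKO and 1.17 ± 0.0580 in those labelled WT). Kdm2a over Kdm2b was 10.2 ± 1.04 in the libraries labelled CKO and 3.20 ± 0.0332 in those labelled WT. Hdac1 over Hdac2 was 3.00 ± 0.143 in the libraries labelled CKO and 1.69 ± 0.195 in those labelled WT, and Kmt5c over Kmt5a was 0.253 ± 0.0129 in the libraries labelled CKO and 0.60 ± 0.0450 in those labelled WT.

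**Figure D5:**
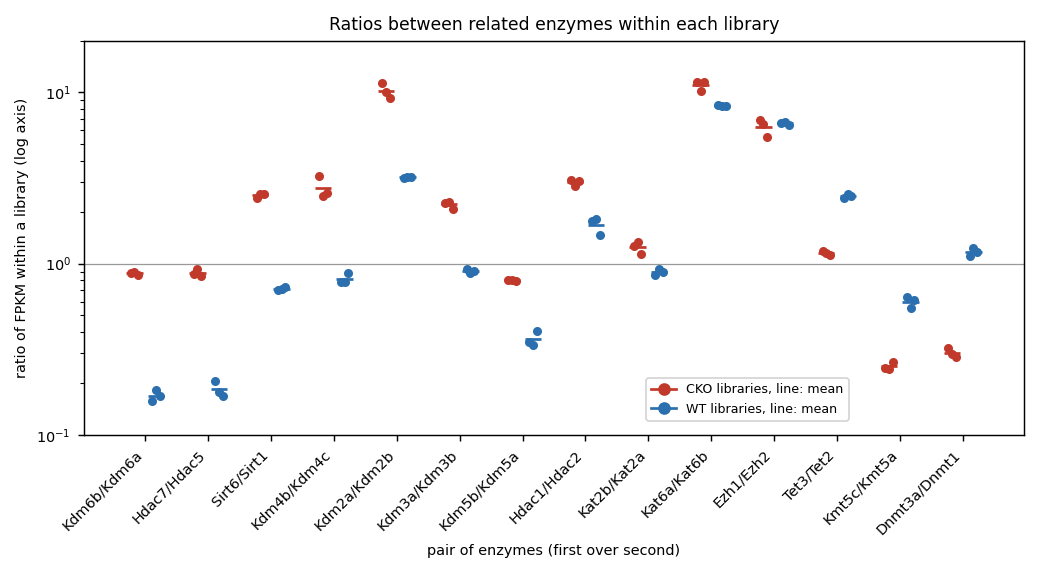
Ratio of FPKM between related enzymes within each library (vertical log axis; points are libraries, lines group means), with CKO in red left of WT in blue for each of the 14 pairs on the horizontal axis. Kdm6b/Kdm6a averages 0.878 in CKO and 0.170 in WT, Dnmt3a/Dnmt1 averages 0.301 in CKO and 1.17 in WT, and Ezh1/Ezh2 is the pair whose points overlap.

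Promoter windows of 300 bases were found in RefSeq for 55 of the 67 genes, 79 windows in all. Their median content of G and C was 62% with 22 CpG pairs, against 52.7% and 7 over all 32851 windows. Both strands were searched for 4 short motifs. TGANTCA, like the site of AP-1, was in the windows of 6 of 13 genes called higher (46.2%), of 0 of 24 called lower and of 1 of 12 not called, against 8.97% of all 27025 genes with a window. Genes differ in their number of windows. By window it was in 7 of 22 of genes called higher (31.8%) and 0 of 34 of genes called lower, against 7.81% of all windows. TTTGGCGC or TTTCCCGC, like the site of E2F, was in 0 of 13 called higher, 3 of 24 called lower (12.5%) and 1 of 12 not called, against 1.8% of all genes. GGNNNTTCC, like the site of NF-kB, was in 4 of 13 called higher and 6 of 24 called lower, against 20.7% of all genes, and AAANNGAAA, like an interferon response element, in 1 of 13 and 2 of 24, against 12.1%. A match is a description of letters, not a bound site. The stretches around the AP-1-like matches of genes called higher, with up to 30 bases on each side and the match in capitals, were chosen for printing after the matches were seen.
Kdm4a, chr4:118180197-118180263, minus strand: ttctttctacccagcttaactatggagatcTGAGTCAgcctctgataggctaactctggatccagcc
Kdm3a, chr6:71632825-71632891, minus strand: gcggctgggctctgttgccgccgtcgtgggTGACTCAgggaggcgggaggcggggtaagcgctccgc
Hdac9, chr12:34528910-34528976, minus strand: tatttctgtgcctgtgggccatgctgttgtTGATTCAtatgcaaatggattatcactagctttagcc
Hdac7, chr15:97814814-97814871, minus strand: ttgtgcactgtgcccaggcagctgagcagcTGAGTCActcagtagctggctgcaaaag
Kat2b, chr17:53566721-53566767, plus strand: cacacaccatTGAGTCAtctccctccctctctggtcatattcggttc
Kdm5c, chrX:152233126-152233192, plus strand: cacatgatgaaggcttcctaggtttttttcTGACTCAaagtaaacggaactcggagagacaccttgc
Kdm3a has a further match at another start. The stretches of Hdac9, Hdac7 and, below, Dnmt1 belong to inner starts, as the listed 5′ ends of these genes are at 34917095, 97844502 and 20959888. The E2F-like matches of genes called lower, beside that of Kmt5c above, were in Dnmt1 and Sirt4, both of which lost their call under median-of-ratios scaling.
Dnmt1, chr9:20952574-20952620, minus strand: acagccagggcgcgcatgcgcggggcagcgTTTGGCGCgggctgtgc
Sirt4, chr5:115484269-115484336, minus strand: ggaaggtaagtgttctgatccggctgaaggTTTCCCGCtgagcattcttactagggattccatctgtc

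Genes that work with these enzymes but lie outside the symbol rule were counted in the same fit, in which 30.5% of all genes were higher and 50.5% lower. Nothing particular to a list is read from its count. Of 15 tested further lysine methyltransferases, 3 were higher and 9 lower, among them Setdb2, an H3K9 methyltransferase (1.13), Smyd3 (-0.87, under 1 FPKM in every library labelled CKO) and Smyd2 (-0.74). Of 7 further JmjC proteins, 1 was higher, Jmjd6 (1.58), and 5 were lower, with Jmjd1c at -0.85 and Riox1 at -0.83. For 8 PRC2 partners of Ezh1 and Ezh2 the counts were 2 and 4, with Jarid2 at 0.35, Rbbp7 at -0.59 and Phf1 at -0.37, all on the log2 scale. Of 8 core subunits of the MLL and COMPASS complexes, 1 was higher, Cxxc1 (0.53), and 5 were lower, with Paxip1 at -0.44 and Wdr5 at -0.40. Of 17 deacetylase corepressor subunits, which include Hdac1, Hdac2 and Hdac3, 2 were higher and 10 lower, with Gps2 at -1.31, Tbl1xr1 at -1.03 and Chd4 at -0.66. Under median-of-ratios scaling the counts higher and lower became 5 and 5 for the lysine methyltransferases, 2 and 4 for the JmjC proteins and 3 and 2 for the PRC2 partners. They became 3 and 2 for the MLL and COMPASS core and 7 and 6 for the corepressors. Over all 9953 genes they were 4058 and 3874 under that scaling.

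The counts of the next lists also stand beside 30.5% of all genes higher and 50.5% lower. Arginine methyltransferases split evenly, with 3 of 8 higher and 3 lower, Prmt5 at 0.49, Prmt1 at 0.42 and Prmt3 at -0.59. Of 6 further acetyltransferases, 1 was higher, Hat1 (0.75), and 3 lower, among them the coactivator Ncoa3 (-1.18) and Naa60 (-0.52). Of 7 DNA methylation partners, 2 were higher and 4 lower, with Uhrf1, which guides Dnmt1 to newly copied DNA, at 0.666 ± 0.0101 FPKM in the libraries labelled CKO and 2.5 ± 0.216 FPKM in those labelled WT (SD, n = 3 each; log2 fold change -1.07), Mbd4 at -0.74 and Zbtb33 at -0.64. Uhrf1 and Mbd4 were under 1 FPKM in every library labelled CKO and passed the filter through those labelled WT alone. Of 7 bromodomain proteins, which bind acetylated histones, 2 were higher and 5 lower. Brd2 averaged 73.2 ± 1.01 FPKM in the libraries labelled CKO and 35.1 ± 0.622 FPKM in those labelled WT (1.04), with Brd9 at -0.76 and Brd3 at -0.35. Under median-of-ratios scaling the counts became 4 and 2 for arginine methyltransferases, 2 and 2 for acetyltransferases, 3 and 4 for DNA methylation partners and 2 and 3 for bromodomain proteins. Over all 9953 genes that scaling gave 4058 higher and 3874 lower. Of 15 S phase and mitosis genes that passed the filter, 7 were under 1 FPKM in every library labelled CKO and passed through those labelled WT alone, so no count of calls is given. Stmn1 changed by -2.99, while Ccnb1 (-1.77) and Top2a (-1.62) were among the 7, and the 16 listed summed to 70.5 to 75.9 FPKM in the libraries labelled CKO and 154 to 156 FPKM in those labelled WT. The link of these to the falls of Dnmt1 and Uhrf1 was not tested.

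Of 16 tested enzymes that make or use the cofactors of these reactions, 5 were higher and 9 lower, or 7 and 8 under median-of-ratios scaling. All genes stood at 30.5% higher and 50.5% lower, or 4058 and 3874 of 9953 under that scaling. Cd38, which consumes NAD, the cosubstrate of sirtuins, was at 89.6, 88.0 and 90.8 FPKM in libraries labelled CKO against 0.251, 0.186 and 0.278 FPKM in those labelled WT. It passed the filter through the libraries labelled CKO alone, so its log2 fold change of 6.19 is given with no test. Nampt, the rate-limiting enzyme of NAD salvage, averaged 127 ± 3.76 FPKM in the libraries labelled CKO and 52.8 ± 0.634 FPKM in those labelled WT (2.41-fold, log2 fold change 1.25, SE 0.0312, limma adjusted p = 1.22e-11). Idh1, which makes the 2-oxoglutarate used by TET and JmjC enzymes, averaged 64.3 ± 1.56 FPKM in the libraries labelled CKO and 182 ± 3.44 FPKM in those labelled WT (2.82-fold lower, log2 fold change -1.48, SE 0.0302, limma adjusted p = 2.32e-12). All libraries of the labels were apart for these 3 genes.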

How the data were processed

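RNA from sorted macrophages was extracted with TRIzol and sequenced with a stranded mRNA kit, per the labels' protocols, in 3 libraries labelled CKO and 3 labelled WT, groups taken from the sample titles. The authors deposited 1 table of FPKM values per library, per the file headers. The submitters' processing notes name build mm10 and, with no role or order, HISAT2 2.1.0, featureCounts 1.6.2, StringTie 1.3.4d, fastp 0.19.3, GATK 4.0.11.0, DESeq2 1.22.1 and Cufflinks. Whether counting used strand is not given in the sources used here, so overlapping antisense genes may share reads. FPKM times listed length gave whole multiples of 1 step within 0.01 for 100.0% of values. The recovered reads gave the depth and 1 alternative test. Chi-square per degree of freedom was 2.16 to 3.18 between libraries of a group, so none was a duplicate. At this depth 3 reads of a gene of 1 kb are 0.163 to 0.195 FPKM.

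Genes with at least 1 FPKM in at least 3 libraries were tested on log2(FPKM + 1) with limma 3.58.1 (trend, R 4.3.3) over all genes at once, with Benjamini-Hochberg adjusted p called under 0.05. Fold changes are CKO minus WT on that scale and understate changes of low genes. For a single gene, an exact permutation test of 3 against 3 libraries cannot go below p = 0.1, so none is given. The limma step was checked on simulated data. Few genes were changed there, evenly in both directions, so the check cannot give error rates for data with 81.1% of genes called. Alternatives were other pseudocounts, filters, scalings, a block by replicate number, no trend, single libraries left out, and limma voom on the recovered reads.

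The symbol rule, role lists, further gene lists and markers were chosen with earlier results of these data known. Given with full statistics were the 12 called members with the largest change in each direction, with a mean of at least 1 FPKM in the higher group and no overlap, and the 4 least changed. From each further list the 3 genes with the smallest p were named, and Alkbh5, Apoe and Lyz2 served to check labels. Lyz2, whose locus carries Cre, averaged 6556 ± 211 FPKM in the libraries labelled CKO and 15116 ± 992 FPKM in those labelled WT (SD, n = 3 each). Other members are named by level or change. All 67 members had the same coordinates in GENCODE M21. Promoters are from RefSeq on GRCm38.p6. Tables and figures were made with Python 3.11.15, pandas 2.3.3, numpy 2.4.6 and matplotlib 3.10.9.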

Additional observations from a re-analysis of the deposited data

How the results depend on the processing

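The count of enzymes higher and lower was 19 and 29 with pseudocounts of 0.1 and 0.5 and without trend, 19 and 30 with limma voom, 20 and 31 without a filter (of 67) and 14 and 22 with a mean of at least 5 FPKM (of 42), where 3185 of all genes were called lower. Median-of-ratios scaling gave 25 and 18, and quantile normalization 23 and 23. Over all 9953 genes median-of-ratios scaling gave 4058 and 3874, and quantile normalization 3569 and 4334. Leaving out 1 library gave 17 to 19 higher and 27 to 29 lower. Of the called enzymes, 17 of 19 higher and 18 of 29 lower kept their call and direction in all of these settings in which they were tested. Besides the 11 named with the scalings, Hdac4 lost its call without CKO 1, WT 2 or WT 3, and Kat2a without CKO 1, CKO 3, WT 2 or WT 3. Among the further lists, bromodomain proteins called higher fell to 1 when any 1 library other than CKO 3 was left out, and MLL and COMPASS core subunits called lower to 3 without CKO 2, WT 1 or WT 3.

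Values that changed sign under median-of-ratios scaling were Ezh2 (0.0035), Hdac3 (0.026), Hdac8 (0.098), Kat6b (0.016), Kat7 (0.029), Kmt2e (0.051), Setd1a (0.088) and Tet2 (0.066), on the log2 scale. With quantile normalization they were Ezh2 (0.043), Hdac8 (0.14), Kat6b (0.069), Setd1a (0.10) and Tet2 (0.047). With 1 library left out, enzymes near 0 changed sign: Hdac2 ranged from -0.0069 to 0.079, Hdac8 from -0.076 to 0.032, Kat8 from -0.080 to 0.086 and Sirt3 from -0.028 to 0.079. Beyond the shift of all genes that a scaling makes, the cause was not tested.

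With the replicate number as a block, 19 enzymes were higher and 29 lower, and it changed no call among them. The deviations of same-numbered libraries correlated at 0.019, 0.012 and -0.039, so the numbers do not pair the libraries. Enzymes under 1 FPKM, such as Tet1, are limited by their few reads, and a mean of 3 libraries limits the precision of all values.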
